A study of Mus musculus with 8 samples.

Results

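The transcripts examined here come from 9 genes whose messenger RNAs are known to carry A-to-I recoding sites: Blcap, Flna, Cyfip2, Igfbp7, Azin1, Copa, Cog3, Tmem63b and Neil1. All probe sets that the platform annotation assigns to these symbols were taken, whatever their value, which gave 17 of the 45037 probe sets tested and 9 of 18193 genes. Their levels were compared in haematopoietic stem cells from fetal liver of C57/B6 mice, sorted as negative for lineage markers and positive for Sca-1 and Kit. The groups were ADAR1 -/- (null, 3 arrays), ADAR1 +/- (heterozygous, 3 arrays) and WT (wild type, 2 arrays), each array with the cells of 1 mouse according to the series' design text. No treatment, transgene or Cre driver is named in the labels, and neither the embryonic day nor the exons removed from the null allele is stated there.

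ADAR1, the enzyme encoded by Adar, deaminates adenosine to inosine in double-stranded RNA. The ribosome reads inosine as guanosine, so an edited codon can specify another amino acid, which is called recoding. Most of the best known recoding sites lie in brain receptors and channels, and the 9 genes here are among those known for recoding outside or beyond the nervous system. The related enzyme ADAR2, encoded by Adarb1, edits some of the same transcripts. The arrays measure how much of a transcript is present and do not read the edited base, so every value below is a level and none is an editing frequency. The sequences around the sites were not analysed here.

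Values are probe set intensities in linear units as deposited, and differences are on the log2 scale with limma standard errors. Background on an array is the highest of its 27 control probe sets for Bacillus transcripts, and it lay at 7.40 to 9.29 linear units on null arrays, 6.20 to 6.98 on heterozygous arrays and 7.09 to 8.15 on wild-type arrays. Probe sets above it made up 40.0% to 46.4% of those tested on null arrays, 51.2% to 61.2% on heterozygous arrays and 45.6% to 51.5% on wild-type arrays. Among probe sets above background on all 8 arrays (12859 of them), the median SD of log2 intensity was 0.66 within null, 0.28 within heterozygous and 0.38 within wild type. Of the stem and progenitor markers, 7 were analysed here, without Ly6a, which encodes Sca-1, and each was above background on at least 1 array of every group, at mean log2 levels of 3.59 to 4.65 on null, 3.80 to 4.18 on heterozygous and 4.09 to 4.57 on wild-type arrays. Hepatocyte and hepatoblast markers (6 of 7 measured) averaged 3.05 to 3.31 on null, 5.37 to 6.35 on heterozygous and 4.27 to 5.77 on wild-type arrays. Of them, 1 passed the test as lower in null than in all controls, beside 0.253% of all probe sets. Macrophage markers (7 of 7 measured) averaged 2.71 to 2.90, 3.81 to 4.24 and 3.36 to 4.49 on the null, heterozygous and wild-type arrays, with 5 of 7 at background on all null arrays.

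The recoding transcripts were detected unevenly. Of the 17 probe sets, 11 were above background on at least 2 arrays, and 6 of the 11, those of Blcap, Flna, Copa, Cog3 and 2 of Azin1, were above it on all 8. Cyfip2, Igfbp7 and Tmem63b each had at least 1 probe set above background on some arrays only. Neil1 was at or below background on all 8 arrays.

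No recoding transcript passed the test for a difference in level between null cells and wild type, or between null cells and all controls. Null minus all controls (wild type and heterozygous together, 5 arrays) gave 0 of 17 probe sets past an adjusted p of 0.05 by limma, beside 0.582% of all probe sets. At an unadjusted p under 0.05 it gave 1 of 17, beside 11.5% of all. Null minus wild type gave 0 of 17, beside 0.326% of all, and 0 of 17 unadjusted, beside 7.63% of all. Null minus heterozygous gave 1 of 17, a Cyfip2 probe set that was lower in null, beside 0.24% of all probe sets called as lower and 0.502% called in either direction. At an unadjusted p under 0.05 it gave 2 of 17, both of Cyfip2 and in opposite directions, beside 11.3% of all. Heterozygous minus wild type gave 0 of 17 by limma, beside 0.00222% of all, and 2 of 17 unadjusted, beside 5.37% of all. By the brightest probe set of each gene, null minus all controls was above 0 for 5 genes (Neil1, at background throughout, among them) and below 0 for 4, with a median of 0.04 log2 units, and the median over all probe sets was also 0.04. The 11 member probe sets above background on at least 2 arrays had a median of -0.20, with 5 above 0 and 6 below. The median over all such probe sets was -0.07. The comparisons share arrays, so their counts are not independent of each other.

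**Figure D1:**
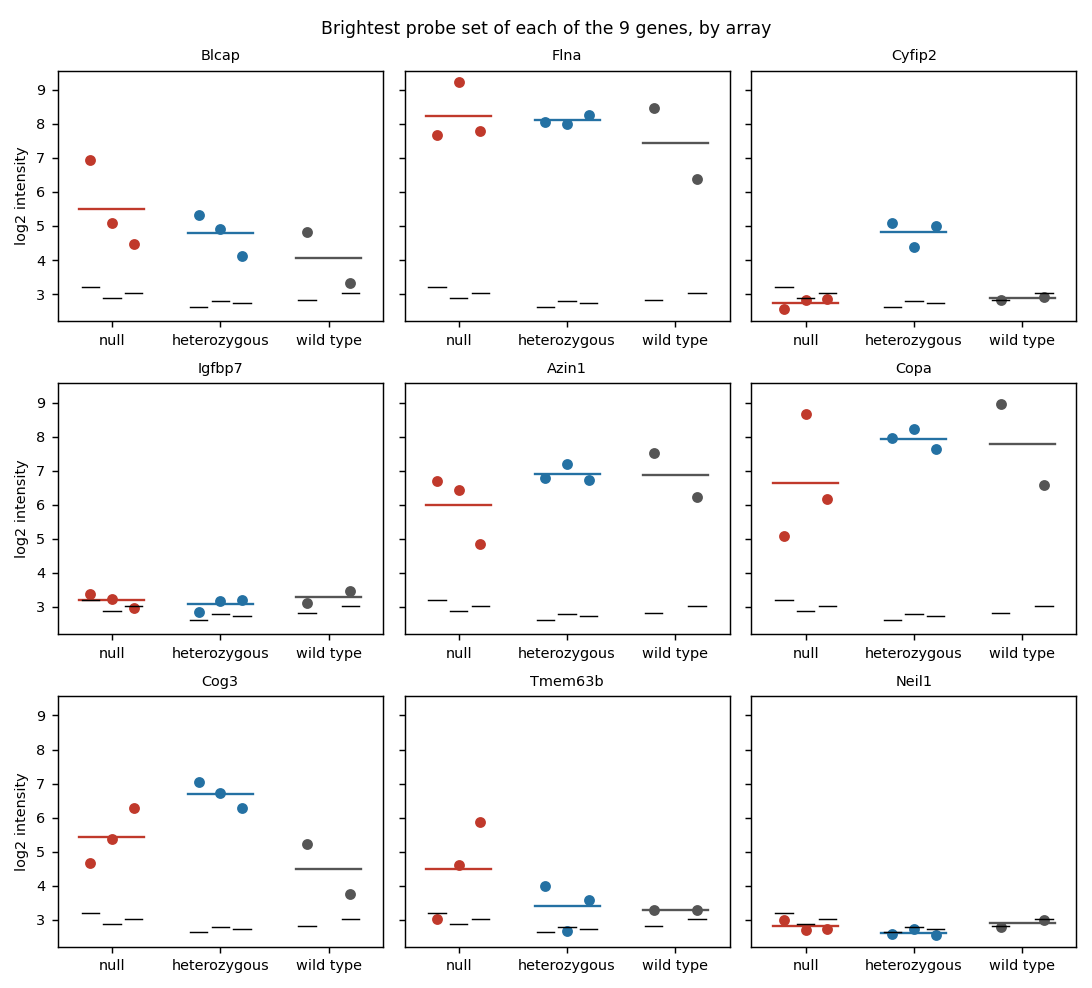
Log2 intensity (vertical axis) of the brightest probe set of each of the 9 genes on every array of the null, heterozygous and wild-type groups; each point is 1 array, coloured lines are group means and the short black lines are the background of that array. Cyfip2 stands well above background on heterozygous arrays alone, and Neil1 lies at or below background on all 8 arrays.

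Flna encodes filamin A, which cross-links actin filaments and anchors membrane proteins to them. Its probe set read 205, 599 and 220 linear units on the null arrays, against 268, 257 and 307 on the heterozygous and 354 and 83.9 on the wild-type arrays. Null array 2 was the highest of the 8 and wild-type array 2 the lowest, and the 3 groups overlapped. The log2 means were 8.23 ± 0.86 in null (SD, n = 3), 8.11 ± 0.14 in heterozygous (SD, n = 3) and 7.43 ± 1.47 in wild type (SD, n = 2). Null minus all controls was 0.39 ± 0.55 log2 units, with a 95% interval of -0.87 to 1.66 (limma, adjusted p = 0.799). The direction depended on single arrays, since the difference was -0.11 without null array 2 and, against wild type, -0.24 without wild-type array 2. Of 11 measured filamins and partners, 0 passed in the 4 comparisons by limma. Unadjusted, 1 was lower in null minus all controls, beside 6.66% of all probe sets. The list had a median of 0.04 (-0.12 without null array 1) and a mean of -0.14 in null minus all controls. The actin cross-linker Actn1 (-0.93 ± 0.56, adjusted p = 0.555) and Vcl, the focal adhesion protein vinculin (-0.58 ± 0.32, adjusted p = 0.520), had the largest differences of that list by brightest probe set and did not pass the limma test. The other probe sets of these genes overlapped between null and controls, and those of Actn1 differed by 0.32 ± 0.56 (adjusted p = 0.839) and -0.13 ± 0.33 (0.890) and that of Vcl by -0.21 ± 0.31 (0.810).

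Cyfip2 encodes a subunit of the WAVE regulatory complex, which takes signals from Rac to actin branching. Its brightest probe set, 1449273_at, read 5.94, 7.09 and 7.27 linear units in null cells, against 34.1, 20.7 and 32.2 in heterozygous and 7.13 and 7.55 in wild-type cells. Every heterozygous array was above every other array, while all 3 null arrays were at background and 1 of the 2 wild-type arrays was just above it. In null cells it fell by 2.07 ± 0.22 log2 units against heterozygous cells (95% interval -2.59 to -1.56; limma, adjusted p = 0.0165), which against the background of the null arrays is at least 3.43-fold lower. The call was lost without null array 1 (adjusted p = 0.0509), heterozygous array 1 (0.0827) or heterozygous array 3 (0.0891), with a pseudocount of 32 (0.0736) and with the mean of the 3 Cyfip2 probe sets (0.250), over alternatives from 0.0126 to 0.250. Heterozygous minus wild type was 1.95 ± 0.24 log2 units (95% interval 1.38 to 2.52), which did not pass (limma, adjusted p = 0.356; unadjusted p = 0.000103). Null minus all controls, which joins the unlike heterozygous and wild-type arrays, was -1.29 ± 0.59 (limma, adjusted p = 0.458). Null minus wild type was -0.12 ± 0.24 (95% interval -0.70 to 0.45; limma, adjusted p = 0.931). In such sorted samples fewer cells of a type and less RNA per cell cannot be told apart. The hepatocyte and macrophage marker means given above were likewise lower on every null array than on every heterozygous array, but overlapped between heterozygous and wild type. Erythroid marker means were higher on every heterozygous array than on every other array. They were 6.62 to 6.65 log2 units on heterozygous, 5.89 to 6.38 on null and 5.72 to 6.29 on wild-type arrays. The part of these cell types in the Cyfip2 level was not tested.

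The other Cyfip2 probe sets did not follow the first. Probe set 1442167_at read 8.05, 11.2 and 10.9 linear units in null cells, against 7.32, 5.60 and 5.52 in heterozygous and 7.59 and 7.09 in wild-type cells. All 3 null arrays were above all 5 control arrays, a separation seen in this direction for 3.89% of all probe sets. The probe set exceeded background on 2 of the 3 null arrays, 1 heterozygous array and 1 wild-type array, and was near background in every group. Null minus all controls was 0.60 ± 0.18 (95% interval 0.19 to 1.0), which was the only member difference of that comparison with an unadjusted p under 0.05 and did not pass the adjustment (limma, adjusted p = 0.260). Probe set 1428347_at was at or below background on all 8 arrays, at 5.0 to 6.33 linear units.

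The 300 bases around the Cyfip2 transcription start are shown because Cyfip2 was the only member with a call. They come from RefSeq (GRCm38.p6, minus strand, chr11:46312309-46312608), are written 5′ to 3′ and have the last 50 bases, after the start, in capitals.
Cyfip2: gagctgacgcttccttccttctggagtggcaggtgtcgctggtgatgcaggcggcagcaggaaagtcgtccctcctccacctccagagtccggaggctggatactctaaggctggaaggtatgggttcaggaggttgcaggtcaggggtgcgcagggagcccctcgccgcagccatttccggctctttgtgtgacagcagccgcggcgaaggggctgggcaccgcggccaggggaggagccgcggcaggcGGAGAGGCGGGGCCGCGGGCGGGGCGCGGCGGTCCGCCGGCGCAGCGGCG

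Partners of Cyfip2 were described from a list of 13 genes of the WAVE complex and Rac, Cyfip2 included, of which 12 were measured, each above background on at least 2 arrays by its brightest probe set. Null minus wild type gave 0 higher and 1 lower, beside 0.22% and 0.107% of all probe sets. The lower one was Wasf1, encoding WAVE1, the subunit that activates the Arp2/3 complex. Wasf1 read 36.4, 31.3 and 38.3 linear units in null cells, against 28.3, 23.6 and 26.2 in heterozygous and 106 and 157 in wild-type cells. Both wild-type arrays were thus above all 6 others. Against wild type Wasf1 fell by 1.87 ± 0.21 log2 units in null cells (limma, adjusted p = 0.0254), and heterozygous minus wild type was -2.31 ± 0.21 (limma, adjusted p = 0.130). The null against wild-type call was lost under 11 of 18 alternatives (adjusted p up to 0.334), among them each of the heterozygous arrays left out in turn, null array 1 and wild-type array 2. The ratio of 3′ to 5′ Gapdh control probe sets, a sign of RNA quality, was 4.32 and 4.39 on the wild-type arrays, below the 7.45 to 8.73 of null and the 4.78 to 8.996 of heterozygous arrays, and its part in the Wasf1 level was not tested. The same ratio for Actb overlapped between the groups. The adaptor Nckap1 (-1.35 ± 0.63, adjusted p = 0.470) and the small subunit Brk1 (-1.40 ± 0.30, adjusted p = 0.119) had the largest differences of null minus all controls in the list and did not pass by limma. Nckap1 read 54.9, 166 and 62.9 linear units in null cells, against 202, 118 and 95.7 in heterozygous and 488 and 387 in wild-type cells. As for Wasf1, both wild-type arrays were above all others. Null minus wild type for Nckap1 was -2.39 ± 0.53 (limma, adjusted p = 0.244). By its brightest probe set Brk1 read 197, 436 and 329 linear units in null cells, against 540 to 905 in heterozygous and 837 and 1050 in wild-type cells, with no overlap, as for 4.3% of all probe sets in this direction and 0 of the 17 members. Its other probe set was above background on all 8 arrays and overlapped, at 44.9 to 295 linear units in null cells and 164 to 352 in the controls (-1.20 ± 0.56; limma, adjusted p = 0.470). The list had a median of -0.37 log2 units in null minus all controls, with 10 of 12 genes below 0 and 0 past the threshold. At an unadjusted p under 0.05, 1 was lower in that comparison, beside 6.66% of all probe sets. In null minus wild type 3 were lower unadjusted, beside 5% of all. After cyclic loess normalization the median of null minus all controls was -0.16, with 7 of 12 below 0.

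**Figure D2:**
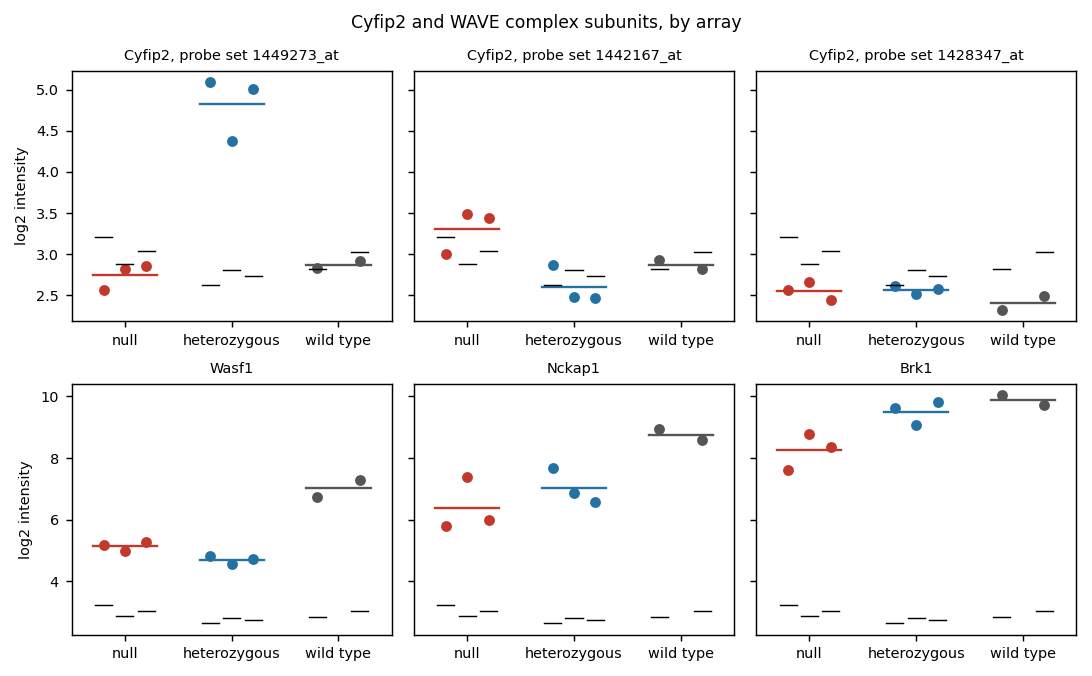
Log2 intensity (vertical axes, scaled separately for the rows) of the 3 Cyfip2 probe sets and of Wasf1, Nckap1 and Brk1 on null, heterozygous and wild-type arrays; points are arrays, coloured lines group means and short black lines the background of each array. The brightest Cyfip2 probe set is high on the 3 heterozygous arrays, whereas Wasf1 and Nckap1 are highest on the 2 wild-type arrays.

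Copa and Cog3 act in vesicle traffic. Copa encodes the alpha subunit of the COPI coat, which returns cargo from the Golgi to the endoplasmic reticulum. Its main probe set read 34.0, 409 and 72.6 linear units in null cells, against 248, 301 and 200 in heterozygous and 502 and 96.1 in wild-type cells. Null array 1 was the lowest and wild-type array 1 the highest, and null arrays lay both below and above all heterozygous ones. The log2 SDs were 1.84 in null (n = 3), 0.30 in heterozygous (n = 3) and 1.69 in wild-type cells (n = 2). Copa differed by -1.23 ± 0.82 in null minus all controls (95% interval -3.14 to 0.68; limma, adjusted p = 0.593). The other Copa probe set was above background on 1 array, null array 3, at 10.5 linear units, and read 5.18 to 6.14 on the rest.

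All 10 COPI genes of the list were measured and 0 passed in any of the 4 comparisons by limma. Unadjusted, 1 was lower in null minus heterozygous, beside 6.81% of all probe sets, and 0 in the other comparisons. In null minus all controls 9 of 10 were below 0, with a median of -0.53. The median was 0.04 over all probe sets and -0.07 over those above background on at least 2 arrays. After cyclic loess normalization 6 of 10 were below 0, with a median of -0.39, and without null array 3 also 6 of 10. The 2 largest differences were those of Cope, the epsilon subunit, and Copb1, a beta subunit. Cope read 20.1, 190 and 436 linear units in null cells, against 318 to 391 in heterozygous and 345 and 333 in wild-type cells, so null array 1 stood far below the others. Cope differed by -1.54 ± 0.86 (limma, adjusted p = 0.531) and Copb1 by -1.31 ± 0.81 (adjusted p = 0.567).

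Cog3 is a subunit of the conserved oligomeric Golgi complex, which tethers vesicles that carry glycosylation enzymes. It read 25.5, 41.3 and 77.1 linear units in null cells, against 131, 106 and 77.6 in heterozygous and 37.5 and 13.5 in wild-type cells. The lowest heterozygous array was just above the highest null array, and the null and wild-type arrays overlapped. Heterozygous minus wild type was 2.19 ± 0.59 log2 units (95% interval 0.80 to 3.59), which did not pass (limma, adjusted p = 0.834; unadjusted p = 0.00768). Null minus heterozygous was -1.25 ± 0.52 (adjusted p = 0.441) and null minus wild type 0.95 ± 0.59 (adjusted p = 0.778), neither past the threshold. Cog3 and the brightest Cyfip2 probe set were the 2 of 17 with all heterozygous arrays above all null and wild-type arrays, an order found in 3.13% of all probe sets and looked for after their values were seen.

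Among the 8 Golgi complex subunits, all measured, 0 passed in any of the 4 comparisons by limma. Unadjusted, 2 were lower in null minus all controls, beside 6.66% of all probe sets. Cog4 had the largest difference, -2.63 ± 0.54 log2 units (adjusted p = 0.109). It read 15.1, 11.3 and 32.7 linear units in null cells, against 123, 167 and 110 in heterozygous and 40.1 and 174 in wild-type cells. A further Cog4 probe set was also lower on every null array, at 10.6 to 13.5 against 24.6 to 77.6 linear units in the controls (-2.18 ± 0.37 by limma, adjusted p = 0.0555). Of all probe sets, 4.3% had every null array below every control array. Cog8 differed by 1.61 ± 0.75 (adjusted p = 0.470), with 578 linear units on null array 1, 129 and 41.3 on the other null arrays and 34.9 to 77.3 in the controls. Its further probe sets differed by 0.79 ± 0.31 (limma, adjusted p = 0.394) and 1.09 ± 0.60 (adjusted p = 0.529). Both overlapped between null and controls. The other 2 Cog4 probe sets read 5.05 to 11.5 linear units in null cells and 5.33 to 10.2 in the controls, with overlap. The first Cog4 probe set and the first 2 of Cog8 are, by the suffix of their names, of kinds that may also match other transcripts. The list median was -0.35 with 6 of 8 below 0, but -0.0042 after cyclic loess normalization and -0.045 without null array 1, each with 4 of 8 below 0.

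Azin1 encodes antizyme inhibitor, which frees ornithine decarboxylase, the first enzyme of polyamine synthesis, from its antizyme. Probe set 1450714_at read 103, 87.3 and 29.1 linear units in null cells, against 111, 147 and 106 in heterozygous and 182 and 74.7 in wild-type cells. All null arrays were below all heterozygous arrays, while wild-type array 2 lay among the null arrays. This order of null and heterozygous arrays held for 3 of the 17 probe sets (with Cog3 and Cyfip2), beside 9.28% of all. The difference between null and all controls was -0.89 ± 0.46 (95% interval -1.95 to 0.16; limma, adjusted p = 0.501). A second probe set, 1422702_at, read 10.3, 39.0 and 15.2 in null cells, against 44.5, 33.7 and 16.6 in heterozygous and 27.3 and 39.9 in wild-type cells, with overlap of all groups. Its difference was -0.75 ± 0.48 (95% interval -1.86 to 0.36; limma, adjusted p = 0.577), so both differences were below 0 and neither passed. The third was above background on 1 array, with 4.66 to 7.87 linear units over all 8.

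Of 9 measured genes of polyamine metabolism, 0 passed in any comparison by limma. Unadjusted, 2 were lower in null minus all controls, beside 6.66% of all probe sets. Sat1, the enzyme that acetylates polyamines for breakdown or export, differed by -2.28 ± 0.60 (adjusted p = 0.205), with 10.3, 47.7 and 9.16 linear units in null cells, against 44.1 to 124 in heterozygous and 66.3 and 76.0 in wild-type cells. Smox, spermine oxidase, differed by 1.01 ± 0.51 (adjusted p = 0.500), while its other probe set, above background on 1 array, overlapped between null and controls. The list median was -0.21, and 0.06 after cyclic loess normalization.

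Blcap encodes a small membrane-associated protein first named in bladder cancer. Its probe set read 123, 33.8 and 22.0 linear units in null cells, against 39.8, 30.4 and 17.2 in heterozygous and 28.3 and 10.04 in wild-type cells. Null array 1 was the highest of all and the other null arrays lay within the range of the heterozygous ones. Null minus all controls was 0.99 ± 0.64 (95% interval -0.48 to 2.47; limma, adjusted p = 0.578), and null minus heterozygous was 0.71 ± 0.72 (limma, adjusted p = 0.679) and -0.01 without null array 1. Nnat, an imprinted gene inside the Blcap locus, read 5.23 to 10.97 linear units in null cells and 5.08 to 9.67 in the controls and differed by 0.07 ± 0.31 (limma, adjusted p = 0.941).

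RefSeq promoters of 300 bases were at hand for 8 of the 9 members, all but Azin1, and their GC content was 54.0% to 76.0%, each above the median of 52.7% over 32851 promoters. Copies of GAAA with 2 bases between a pair of them, the core of the interferon-stimulated response element, were on either strand of 0 of the 8, beside 3.44% of all promoters. A match of TTCNNNGAA, the interferon gamma-activated site, was in 1 of the 8, beside 8.30% of all, and the motifs were searched separately, any overlap being allowed. That match is in Blcap, whose promoter is shown for it (GRCm38.p6, minus strand, chr2:157566312-157566611, 5′ to 3′), with the motif in capitals 42 bases before the start. The pattern TTCNNNGAA is the same on both strands, although the bases matched here are not.
Blcap: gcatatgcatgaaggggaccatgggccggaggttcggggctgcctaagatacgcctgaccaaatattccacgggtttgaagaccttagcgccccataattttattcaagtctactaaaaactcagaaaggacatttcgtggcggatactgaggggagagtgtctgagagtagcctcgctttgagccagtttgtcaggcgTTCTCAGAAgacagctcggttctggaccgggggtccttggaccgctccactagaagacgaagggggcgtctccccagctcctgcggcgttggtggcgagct

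Tmem63b encodes a cation channel that opens on membrane stretch or osmotic change. Its brighter probe set read 8.20, 24.6 and 58.0 linear units in null cells, against 15.8, 6.44 and 11.9 in heterozygous and 9.85 on both wild-type arrays. Null arrays 2 and 3 were above every control array, whereas null array 1 was at background. Its difference between null and all controls was 1.14 ± 0.59 (95% interval -0.22 to 2.49; limma, adjusted p = 0.503). The other probe set was at or below background on all 8 arrays, at 4.67 to 6.58 linear units. Of the related channels, Tmem63a read 161 to 220 linear units in null cells and 111 to 209 in the controls and differed by 0.33 ± 0.25 (limma, adjusted p = 0.631).

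Igfbp7 and Neil1 were near background. Igfbp7 encodes a secreted protein that binds insulin-like growth factors and insulin. Its brightest probe set read 10.5, 9.41 and 7.83 linear units in null cells, against 7.22, 9.01 and 9.20 in heterozygous and 8.70 and 11.1 in wild-type cells. The groups overlapped, and null minus all controls was 0.04 ± 0.17 (95% interval -0.35 to 0.42; limma, adjusted p = 0.947). The other 2 probe sets read 4.94 to 10.1 linear units over all arrays. Markers of endothelial and stromal cells, in which Igfbp7 is known to be expressed, averaged 3.68 to 4.01 on null, 3.45 to 3.79 on heterozygous and 3.70 to 3.81 on wild-type arrays, and 0 of 10 passed in null minus all controls. Of 11 measured insulin-like growth factor genes, 0 passed in the 4 comparisons by limma, and 0 had an unadjusted p under 0.05 in null minus all controls. The growth factor Igf2 differed by -1.50 ± 0.68 in null minus all controls (adjusted p = 0.457), with 9.89, 38.6 and 6.61 linear units in null cells, against 87.1, 57.8 and 35.5 in heterozygous and 22.1 and 21.5 in wild-type cells. The other Igf2 probe set differed by -0.97 ± 0.51 (limma, adjusted p = 0.511) and overlapped between null and controls. The binding protein Igfbp4 differed by -1.39 ± 0.94 in null minus all controls (adjusted p = 0.597), with 43.2 linear units on null array 1 and 446 to 1246 on the other 7 arrays, and its other 5 probe sets overlapped between null and controls, with differences of -0.90 to -0.07.

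Neil1, a glycosylase that removes oxidised bases from DNA, read 8.04, 6.51 and 6.59 linear units in null cells, against 5.96, 6.58 and 5.83 in heterozygous and 6.92 and 8.06 in wild-type cells. No array exceeded its background, so its differences are not read as changes in level. Of 13 measured base excision repair genes, 0 passed in the 4 comparisons by limma. Unadjusted, 2 were lower in null minus all controls, beside 6.66% of all probe sets. Xrcc1, the scaffold of single-strand break repair, had the largest difference in null minus all controls, -2.64 ± 0.71 log2 units (adjusted p = 0.221). It read 37.4, 140 and 10.3 linear units in null cells, against 222, 207 and 320 in heterozygous and 225 and 217 in wild-type cells. Null and control arrays did not overlap, as for 4.3% of all probe sets in this direction. Apex1, the endonuclease that cuts at abasic sites, differed by -1.30 ± 0.45 (adjusted p = 0.336), on a probe set that may also match other transcripts. Its further probe sets were above background on all 8 arrays and overlapped between null and controls. They differed by -0.43 ± 0.26 (limma, adjusted p = 0.559) and -1.06 ± 0.43 (adjusted p = 0.419), the latter also of a kind that may match other transcripts. Median (0.07) and mean (-0.25) of the list differ in sign, and without null array 1 the median was -0.21.

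**Figure D3:**
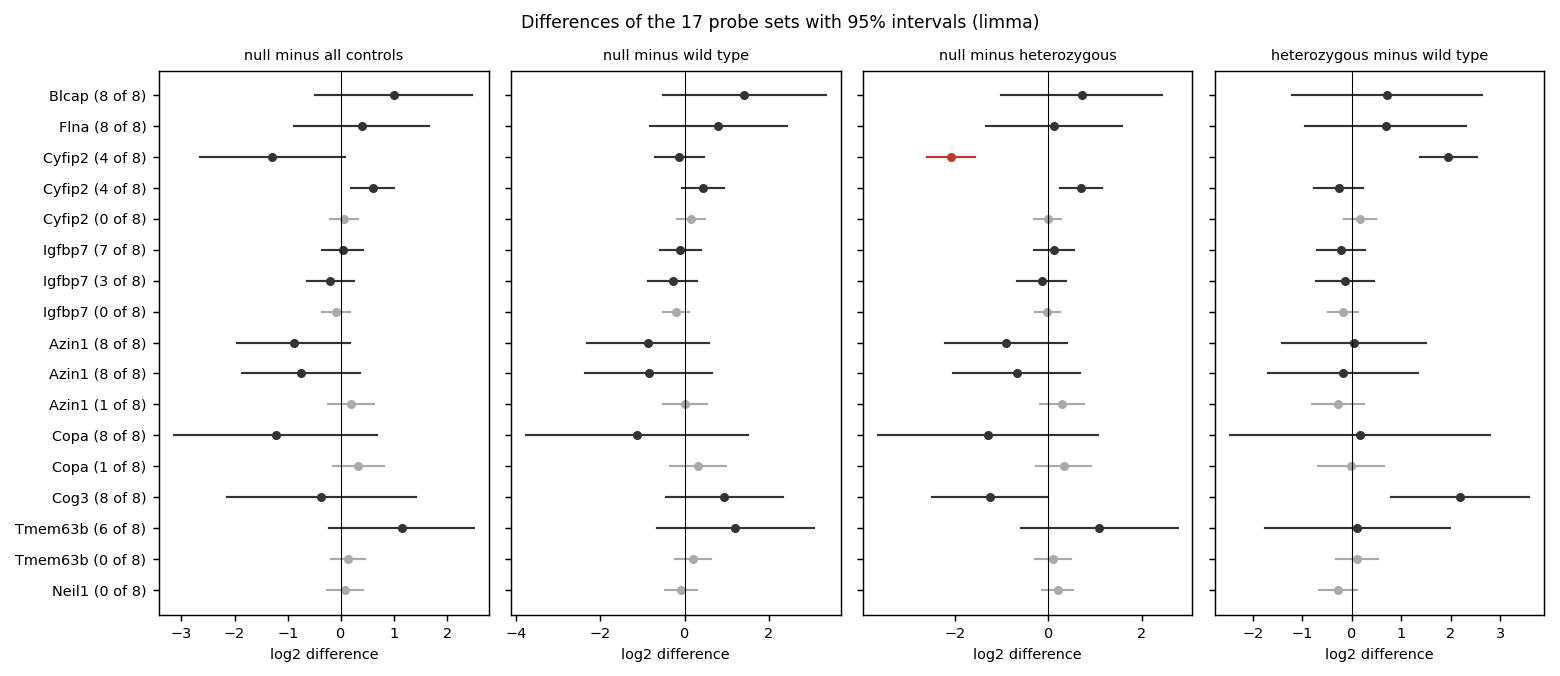
Log2 differences (horizontal axes) of the 17 probe sets with 95% limma intervals in the 4 comparisons; the label of each row gives the number of arrays on which that probe set was above background. The Cyfip2 probe set in red (-2.07 in null minus heterozygous) passed the threshold, black ones did not and grey ones were above background on fewer than 2 arrays, so that their sign is not read.

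Replicate spread was larger in null than in heterozygous cells for most members, as for most probe sets on the array. For 9 of the 11 members above background on at least 2 arrays the SD of log2 intensity was larger in null than in heterozygous cells, and this held for 72.9% of the 28639 probe sets with that property. Null array 1 gave the lowest value of the 8 arrays for 4 of the 11 and the highest for 1, and over all those probe sets it was lowest for 20.6% and highest for 15.7%. The median absolute difference of null minus all controls was 0.75 log2 units over these 11 and 0.33 over the 28639. These sets were not matched for level, since 6 of the 11 were above background on all 8 arrays, against 12859 of the 28639. Azin1, Cyfip2 and Igfbp7 each enter the 11 with more than 1 probe set.

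Other transcripts with known recoding sites were examined from a list of 16, of which 15 were measured and 9 were above background on at least 2 arrays. Limma called 0 of them in each of the 4 comparisons, and 0 had an unadjusted p under 0.05 in null minus all controls. Their median was 0.11 log2 units. Gria3, a glutamate receptor subunit, read 10.5, 14.5 and 7.06 linear units in null cells, against 8.12, 6.29 and 8.53 in heterozygous and 6.36 and 7.08 in wild-type cells, with overlap (0.50 ± 0.24; limma, adjusted p = 0.470). Its other probe set, above background on 2 arrays, differed by -0.14 ± 0.15. Mex3b, an RNA-binding protein, was at background on all 3 null arrays, at 5.48 to 5.92 linear units, and read 4.88 to 17.1 in the controls. Of the 8 editing enzymes and relatives Adar passed the limma test in null minus all controls (3.22 ± 0.41, adjusted p = 0.0170), beside 0.329% of all probe sets called as higher. In the other 3 comparisons 0 passed by limma, and Adar had adjusted p = 0.105 against wild type and 0.0681 against heterozygous cells. The call was lost with a pseudocount of 32 (adjusted p = 0.0545) and without heterozygous array 1 (0.0630) or 3 (0.0610), over alternatives from 0.00656 to 0.0630. Its brightest probe set read 59.7, 144 and 176 linear units in null cells and 7.66 to 17.6 in the controls, and the other 2 Adar probe sets overlapped between null and controls. Since the deleted exons are not given, these levels do not check the genotype labels. Adat2, a subunit of the transfer RNA deaminase, differed by -1.43 ± 0.73 (limma, adjusted p = 0.500).

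**Figure D4:**
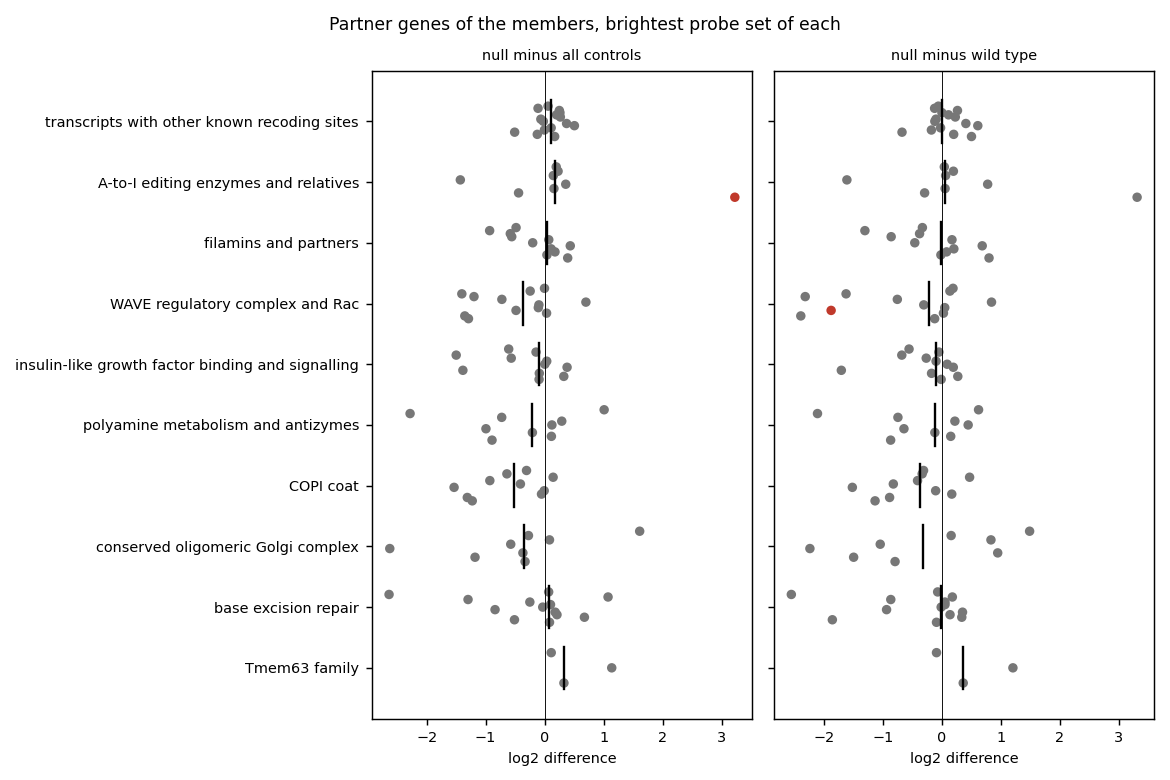
Log2 differences (horizontal axes) of null minus all controls and null minus wild type for each gene of 10 lists, by its brightest probe set; black bars are list medians and red points passed the threshold. Adar is the red point of null minus all controls and Wasf1 that of null minus wild type.

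The genes with the most similar profiles were sought among 7058 genes above background on all arrays, by the mean absolute difference of log2 values over the 8 arrays after centring. For the brightest Cyfip2 probe set these were Rfc3 (0.23 log2 units) and Fhl1 (0.26), beside a range of 2.52 for Cyfip2 itself. For Cog3 they were Rapgef6 (0.22) and Ssx2ip (0.30), for Copa Rbms1 (0.25) and Nudt4 (0.31), and for Azin1 Far1 (0.18) and Mapre2 (0.20). Flna was nearest to Tbce (0.17) and Mrpl2 (0.19), Blcap to Mrpl22 (0.25) and Ddx52 (0.28), and Tmem63b to Haus2 (0.29) and Chd7 (0.30). Igfbp7 was nearest to Ugt3a1 and Cux2 (0.08 each), with a range of 0.62 for Igfbp7 itself. For Neil1, at background throughout, they were Tagln3 (0.05) and Pfpl (0.06), which orders no levels.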

How the data were processed

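Probe set levels were measured on 8 arrays, each of 1 mouse. The authors deposited 1 linear intensity for each probe set and array, summarised with RMA per the submitters' processing notes, which name no software or version. The deposited values did not have identical distributions between arrays. Their log2 upper quartiles were 3.99 to 4.41 on null, 4.41 to 4.52 on heterozygous and 4.20 to 4.35 on wild-type arrays. Log2 was taken of the deposited intensity. Of 45101 probe sets, 64 controls were left out. The annotation gave 34945 of the rest 1 gene, 932 several and 9160 none, and 34741 were matched to current symbols by gene number. Every array column was used, leaving out 0.

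A linear model of 3 groups (limma 3.58.1, R 4.3.3; lmFit, eBayes; 5 residual degrees of freedom) gave 3 comparisons and a model of 2 groups (6 degrees of freedom) the comparison of null with all controls. All tests are two-sided, with Benjamini and Hochberg adjustment over 45037 probe sets and a threshold of 0.05. The number of arrays limits the precision. Alternatives were quantile and cyclic loess normalization, a pseudocount of 32, filters on dim probe sets, array weights, a variance trend, 1 value per gene, only the groups compared, and each array left out. The method was also run on simulated data in which each probe set had the same spread in all groups. The measured spreads differed between groups, so that run cannot show how unequal spread affects the tests. Groups came from sample titles; replicates are numbered in accession order and pair nothing.

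Members, lists and tests were chosen with earlier results of these data known. Every member probe set is named, and of each list the genes past the threshold in any comparison and the 2 above background that differed most in null minus all controls, by brightest probe set. Nearest profiles are the 2 closest genes. Marker lists give counts and ranges: stem and progenitor, hepatocyte, macrophage and endothelial lists are in the text. Erythroid markers (4 of 6 measured) averaged 5.89 to 6.38 log2 units on null, 6.62 to 6.65 on heterozygous and 5.72 to 6.29 on wild-type arrays. Lymphoid markers (4 of 5) averaged 2.69 to 2.75, 2.49 to 2.73 and 2.59 to 2.86, and granulocyte markers (4 of 5) 3.08 to 3.93, 3.45 to 3.93 and 3.85 to 3.90, in the same order.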

Additional observations from a re-analysis of the deposited data

Results flagged for a closer look

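Flna on wild-type array 2 stood apart from the other control arrays. It read 83.9 linear units there, against 257 to 354 on the other 4 control arrays, and its gap to the nearest of them was 0.776 of the range of the 5 on the log2 scale, above the 95% limit of Dixon's test. All 17 probe sets were examined in this way, and chance alone flags about 1 in 20 groups of values. Null minus wild type for Flna was 0.80 ± 0.68 log2 units with this array and -0.24 without it.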

How the results depend on the processing

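The number of member probe sets past the threshold in null minus heterozygous was 1, and it was 0 with a pseudocount of 32 and with the mean of each gene's probe sets, and 0 to 1 with single arrays left out. In the other 3 comparisons it was 0 under each alternative run. Some log2 differences that had not passed turned their direction in other settings, and the cause was not tested. With the mean of each gene's probe sets these became -0.086 for Igfbp7 1437804_at in null minus all controls, 0.15 for Cyfip2 1449273_at in null minus wild type, -0.013 for Igfbp7 1437804_at in null minus heterozygous and -0.14 for Azin1 1450714_at in heterozygous minus wild type. With quantile normalization it became -0.047 for Azin1 1450714_at in heterozygous minus wild type. With cyclic loess these became -0.14 for Azin1 1450714_at, -0.0042 for Copa 1415706_at and -0.012 for Tmem63b 1452219_at in heterozygous minus wild type.

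Leaving out single arrays turned further log2 differences, given as their lowest and highest values. These were, in null minus all controls, Cog3 (-0.88 to 0.014), Flna (-0.11 to 0.66) and Igfbp7 1437804_at (-0.063 to 0.15). For null minus wild type they were Copa 1415706_at (-2.32 to 0.062), Flna (-0.24 to 1.84), Igfbp7 1423584_at (-0.58 to 0.011) and Igfbp7 1437804_at (-0.27 to 0.077). For null minus heterozygous they were Blcap (-0.011 to 1.23) and Flna (-0.38 to 0.39). For heterozygous minus wild type they were Azin1 1422702_at (-0.48 to 0.23), Azin1 1450714_at (-0.60 to 0.69), Blcap (-0.041 to 1.45), Copa 1415706_at (-1.03 to 1.36), Flna (-0.36 to 1.72), Igfbp7 1423584_at (-0.43 to 0.16) and Tmem63b 1452219_at (-0.17 to 0.47).

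Probe sets above background on 1 array or none turned too, and their signs are not read as directions. With quantile normalization and with cyclic loess these became -0.0075 and -0.038 for Cyfip2 1428347_at in null minus all controls, -0.020 and -0.019 for Azin1 1430984_at in null minus wild type, -0.0021 and -0.032 for Tmem63b 1445464_at in null minus heterozygous, and 0.062 and 0.077 for Copa 1437274_at in heterozygous minus wild type. With single arrays left out they ran, in null minus all controls, from -0.0021 to 0.11 for Cyfip2 1428347_at and from -0.016 to 0.15 for Neil1. In null minus wild type they ran from -0.21 to 0.23 for Azin1 1430984_at, from -0.20 to 0.019 for Neil1 and from -0.034 to 0.42 for Tmem63b 1445464_at. In null minus heterozygous they ran from -0.068 to 0.043 for Cyfip2 1428347_at and from -0.071 to 0.035 for Igfbp7 1423585_at, and in heterozygous minus wild type from -0.075 to 0.042 for Copa 1437274_at and from -0.13 to 0.33 for Tmem63b 1445464_at.

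Signal over background limits Neil1, Igfbp7 and the dim probe sets of Cyfip2, Azin1, Copa and Tmem63b. With wild type down to 1 array, that array is assumed to vary like the other groups. No paired analysis was possible because the titles give each mouse its own number and no number is shared between groups.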
